A study of Caenorhabditis elegans with 2 samples.

Results

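The regions described are the peaks of GFP-tagged MEP-1 on the autosomes of Caenorhabditis elegans that lie at divergent promoters, where genes on opposite strands share a start region. A peak was taken from the optimal list of reproducible peaks if its summit lay in promoter windows of at least 1 gene on each strand. Each promoter window covered the 1000 bp before and the 200 bp after the 5' end of a protein-coding transcript, for all such transcripts of Ensembl release 115 on WBcel235. The rule found 764 peaks among 4904 in the list, of which 4003 were autosomal and 2425 were autosomal with a summit in any promoter window. The other 1661 autosomal promoter peaks had windows of 1 strand only and are called one-strand promoter peaks. A further 1578 autosomal peaks lay outside the windows, and X, left out by the rule, had 31 divergent peaks among 412 promoter peaks.

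The samples were 2 biological replicates of 1 group, whole L1 larvae of strain OP102 with the sexes pooled, and there was no other condition. The genotype is unc-119(tm4063) III; wgIs102, where wgIs102 is the transgene that carries the eGFP-tagged mep-1. All larvae share the unc-119 allele and the transgene. The peaks come from whole animals, so a site used in a few cells and one used weakly in many cells cannot be told apart, and no control library was analysed here. Each peak has a signal, the authors' value on a scale that differs between lists, which serves here to rank peaks within a list. Coordinates are on ce11 (WBcel235), counted from 1.

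MEP-1 is a nuclear zinc finger protein that works with LET-418, a worm homolog of the Mi-2 nucleosome remodeler, in complexes related to NuRD. It is known for keeping germline genes silent in somatic cells and for its place among the synMuv genes of vulval development. In the compact worm genome many genes lie head to head, so that a single nucleosome-depleted stretch can serve the transcription of both. Many worm messages are trans-spliced, which removes the first part of the transcript, so an annotated 5' end often lies downstream of the true start of transcription.

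To show what DNA lies under the strongest divergent peaks, the summit with 50 bp on each side is given for 6 of them. These are the highest-signal members on II to V whose summit lies between the 5' ends and whose sequence touches no annotated exon. All are read from the plus strand of the RefSeq assembly of WBcel235, with capitals for any of 11 short words searched on either strand.
rpl-20 / Y17G9B.5, chrIV:4750015-4750115: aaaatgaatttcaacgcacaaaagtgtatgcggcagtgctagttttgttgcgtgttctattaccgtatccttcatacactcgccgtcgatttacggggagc
ifet-1 / rps-1, chrIII:4475604-4475704: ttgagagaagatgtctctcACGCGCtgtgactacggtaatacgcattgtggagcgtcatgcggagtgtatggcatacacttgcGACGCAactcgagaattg
ska-3 / rps-12, chrIII:5679090-5679190: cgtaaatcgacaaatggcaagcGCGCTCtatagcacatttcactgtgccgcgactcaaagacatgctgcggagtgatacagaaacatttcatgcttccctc
rpl-15 / K11H12.8, chrIV:654868-654968: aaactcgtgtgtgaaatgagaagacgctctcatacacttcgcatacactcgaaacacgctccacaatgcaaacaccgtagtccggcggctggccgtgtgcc
cdk-5 / kel-3, chrIII:13466367-13466467: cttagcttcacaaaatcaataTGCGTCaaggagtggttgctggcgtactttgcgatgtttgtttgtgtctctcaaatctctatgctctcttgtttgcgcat
dnsn-1 / C24H12.4, chrII:411007-411107: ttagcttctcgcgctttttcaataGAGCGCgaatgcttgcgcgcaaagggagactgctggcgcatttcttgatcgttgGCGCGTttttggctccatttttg
In each name the minus-strand gene stands first and the plus-strand gene second. The sequences of rpl-20 / Y17G9B.5 and rpl-15 / K11H12.8 held none of the words, those of ska-3 / rps-12 and cdk-5 / kel-3 held 1, and the others held 2. GC content ran from 42.6% at cdk-5 / kel-3 to 53.5% at rpl-15 / K11H12.8.

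The strongest divergent peaks were led by pairs in which 1 gene encodes a protein of the cytosolic ribosome. The 7 highest-signal members all had such a gene, as did 7 of the 15 highest and 20 of the 100 highest, against 40 of all 764 (5.24%). One-strand promoter peaks at such genes were strong too, with a median signal of 205 (25 peaks) against 255 for the 40 divergent ones. The peak between rpl-20 (WBGene00004432), a protein of the large ribosomal subunit, and Y17G9B.5 (WBGene00021202) lay at chrIV:4749921-4750243. Its signal was 800, rank 3 of the whole optimal list, and it ranked 3 in replicate 1 and 3 in replicate 2, with summits 2 bp apart. The 5' ends are 462 bp apart, and the summit lay 287 bp from that of rpl-20 and 175 bp from that of Y17G9B.5. The peak between rps-20 (WBGene00004489), of the small subunit, and ekl-4 (WBGene00013676) lay at chrI:14469174-14469490 with a signal of 797, and ranked 5 in replicate 1 and 2 in replicate 2. Both replicates placed its summit at the same base, 243 bp from rps-20 and 154 bp from ekl-4.

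Other small-subunit genes followed. The peak between ifet-1 (WBGene00004132), a homolog of the eIF4E transporter that holds back translation, and rps-1 (WBGene00004470) had a signal of 645 and ranked 11 in replicate 1 and 7 in replicate 2. Its summit lay 504 bp from ifet-1 and 264 bp from rps-1. The peak between ska-3 (WBGene00018830), named for the spindle and kinetochore associated complex, and rps-12 (WBGene00004481) had a signal of 623 and ranked 15 in replicate 1 and 12 in replicate 2. There the 5' ends are 293 bp apart, and the summit lay almost at the middle, 135 bp from ska-3 and 158 bp from rps-12.

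The next 3 members paired a ribosomal protein gene with a gene of another kind. The peak at rpl-15 / K11H12.8 had a signal of 563 and ranked 20 in replicate 1 and 25 in replicate 2. The peak between rps-19 and hsr-9, a homolog of the DNA damage protein 53BP1, had a signal of 555 and ranked 24 in replicate 1 and 22 in replicate 2. The peak between rpl-12 and lin-54, the DNA-binding subunit of the DREAM repressor complex, lay at chrIV:13240532-13240849 and had a signal of 549, with ranks of 30 in replicate 1 and 11 in replicate 2. Its summit was 30 bp from rpl-12 and 363 bp from lin-54.

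The remaining members of the highest 15 had other cellular machinery at their ends. Cyclin-dependent kinase gene cdk-5 faced kel-3 (signal 534), and dnsn-1, a DONSON-type replication gene, faced C24H12.4 (521). The translation elongation factor gene eef-1A.1 faced rfc-4 of the DNA clamp loader (512), and the summit was 387 bp from eef-1A.1 and 154 bp from rfc-4. The eIF4H homolog drr-2 faced set-16, a histone H3K4 methyltransferase of the MLL type (489), and iff-2, encoding eIF5A, faced F54C9.14 (488). The last 3 were wve-1, a WAVE actin regulator, with R06C1.4 (481), gpap-1 with scpr-1 (472) and Y71H2AM.20 with cox-6B of the respiratory chain (471). All 15 were within the 53 highest-signal peaks of replicate 1 and the 105 highest of replicate 2. The rank of 105 belongs to the cox-6B pair, which ranked 34 in replicate 1.

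Divergent peaks stood higher in the list than one-strand promoter peaks. Their median signal was 119 (middle 50% from 80.9 to 190), against 87.5 for one-strand peaks (60.7 to 141) and 69.1 for peaks outside windows (54.9 to 103). As a percentile among autosomal promoter peaks the medians were 62.3 for divergent and 43.4 for one-strand peaks. In replicate 1 they were 61.5 and 43.4, and in replicate 2 they were 62.1 and 44.4, so the replicates differed by far less than the classes did. Divergent peaks ranged from 45.3 to 800 and one-strand peaks from 45.3 to 832, so the classes overlapped over nearly the whole range. Peaks are not replicates and there was 1 group, so no test was run on this difference.

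With the autosomal promoter peaks split by signal into 10 groups of equal size, the divergent share was 46.5% at the top (113 of 243, exact Clopper-Pearson 95% interval 40.1 to 53.0) and 14.9% at the bottom (36 of 242). The share over all autosomal promoter peaks was 31.5%. The order of the medians was the same on each autosome. The divergent medians ran from 116 on II and IV to 127 on V, against one-strand medians from 77.7 on V to 91.4 on I.

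**Figure D1:**
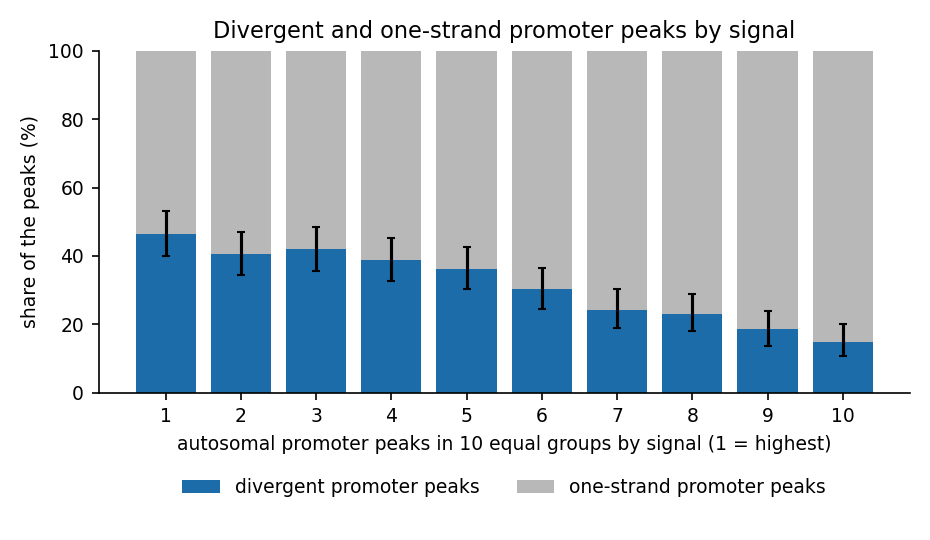
Share of divergent (blue, with exact 95% intervals for counting error) and one-strand (grey) peaks in each of 10 equal groups of the 2425 autosomal promoter peaks, ordered by signal in the optimal list. The blue share is 46.5% in group 1 and 14.9% in group 10.

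The same medians were taken in subsets by distance to a gene, ribosomal genes and width of the called peak. Divergent summits were nearer to a 5' end, with 71.9% within 200 bp against 45.8% of one-strand summits. A divergent summit can be near an end on either strand, so the rule itself sets part of this difference. Any summit between 5' ends up to 400 bp apart, for one, must lie within 200 bp of the nearer end. Within 200 bp the median signal was 118 for divergent and 84.6 for one-strand peaks, and beyond 200 bp it was 119 and 90.0. Without peaks in the window of a ribosomal protein gene it was 116 and 85.9, and among peaks in such a window it was 255 and 205. A width of exactly 350 bp was shared by 46.1% of divergent and 62.1% of one-strand peaks. Among these 350 bp peaks the median signal was 78.7 for divergent and 66.1 for one-strand peaks, with median percentiles of 63.1 and 45.2 within the subset. Among peaks of other widths the signals were 184 and 167 and the percentiles 54.4 and 45.8. Width goes with signal in both classes, and its part in the difference was not tested.

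Support in the replicates was measured by overlap of at least 1 bp with one of the 4904 highest-signal peaks of each. Such support in both replicates was found for 678 divergent peaks (88.7%, exact interval 86.3 to 90.9), against 77.1% of all autosomal optimal peaks. It was 78.9% for one-strand promoter peaks (76.8 to 80.8) and 69.6% for peaks outside windows. Of the other divergent peaks 61 were supported by replicate 1 only, 23 by replicate 2 only and 2 by neither. The optimal list is drawn from the same replicates, so such support is not independent of signal. In both replicates it was 98.9% for divergent peaks in the higher-signal 50% of the list. The classes were not compared at matched signal. Counting a call of any rank, 759 divergent peaks had an overlapping call in both replicates, 3 in replicate 1 alone and 2 in replicate 2 alone. The summits of the replicates lay a median of 13 bp apart at divergent peaks and 20 bp at one-strand peaks. Spearman's rho of replicate signal was 0.868 over 759 divergent peaks and 0.773 over 1643 one-strand peaks, as a description of peaks that were selected from these same replicates.

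The members whose replicate ranks differed most were weak ones. The peak at spe-48 / Y51F10.11 ranked 2257 in replicate 1 and 28601 in replicate 2, and that at abu-13 / let-711 ranked 2959 in replicate 1 and 29092 in replicate 2. One of the peaks at cdc-14 / ttc-4 (signal 66.6) ranked 2307 in replicate 1 and 13288 in replicate 2, while the other peak of that pair (171) ranked 1197 and 352. The members of lowest signal were ncap-1 / Y110A2AR.1 (45.5), nhr-59 / fbxa-137 (45.3) and nhr-184 / nstp-8 (45.3). The nhr genes encode nuclear hormone receptors. In replicate 2 the receptor pairs ranked 6994 and 6354, below the 4904 highest.

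**Figure D2:**
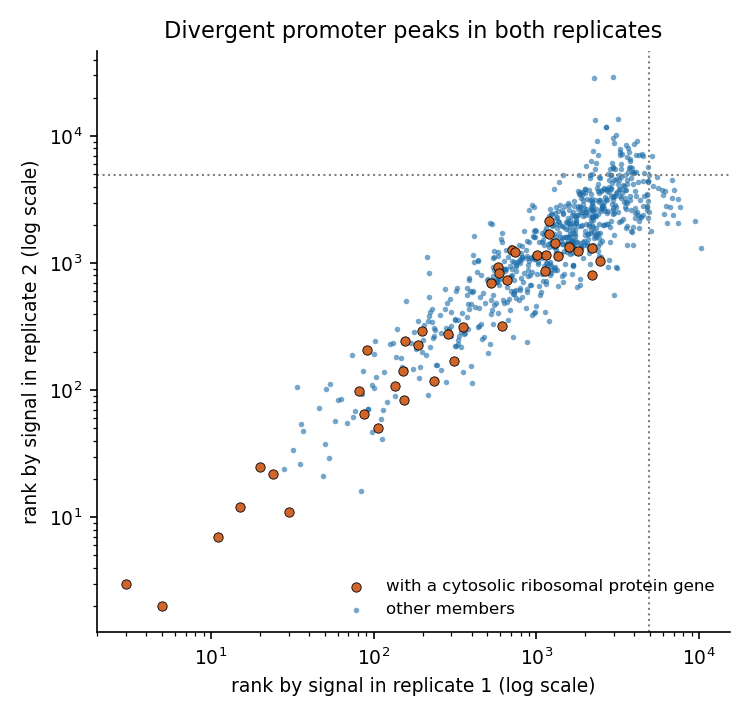
Rank by signal in replicate 1 (horizontal) and replicate 2 (vertical), on log scales with 1 the strongest, for the 759 divergent promoter peaks called in both. Orange points are the 40 members with a cytosolic ribosomal protein gene, all of which lie within the 4904 highest peaks of each replicate (dotted lines).

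Divergent windows are a small part of the genome that held many summits. Bases in windows of both strands made up 2.68% of the autosomes (2211 kb) and held 19.1% of autosomal summits, or 346 per Mb. Windows of 1 strand held 82.5 per Mb and bases outside windows 26.2 per Mb. Replicate 1 alone, at the same list length, gave 345 per Mb in both-strand windows, and replicate 2 gave 355. The 19930 autosomal peaks of the pooled list below the optimal ones had no such order, with 228 summits per Mb in both-strand windows, 283 in one-strand windows and 228 outside. By chromosome, III held 191 divergent peaks and I held 183, with 13.9 and 12.1 per Mb. IV and II held 129 each and V held 132, the lowest density at 6.31 per Mb.

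The 764 members fell in 744 gene pairs, counting the nearest 5' end on each strand, and 20 pairs had 2 peaks. Windows of 3 or 4 genes held 53 members, and 1538 genes had a divergent peak in their window. That is 8.92% of the 17242 autosomal protein-coding genes. Of the 4756 autosomal genes with a head-to-head neighbour, 1432 had a divergent peak (30.1%). A head-to-head neighbour is the adjacent gene on the opposite strand, transcribed in the other direction and away from it. The outermost 5' ends of the 2 genes are up to 2000 bp apart, with no other gene's outermost 5' end between them. The peaks of a pair could differ much in signal. At dnj-13, a DnaJ-type chaperone gene that faces F54D5.9, the signals were 390 and 50.2, and at ash-2, a gene of the H3K4 methyltransferase complex that faces Y17G7B.20, they were 250 and 58.9. At larp-5 / sld-2 they were closer, at 113 and 95.3.

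Most summits lay between the 5' ends. Of the 764, 701 did (91.8%, exact interval 89.6 to 93.6), 30 lay inside the plus-strand gene, 28 inside the minus-strand gene and 5 where the 5' ends overlap. The windows reach 1000 bp upstream but only 200 bp downstream, so the rule itself favours summits between the ends. No share expected from the windows was computed. The 5' ends were a median of 494 bp apart (middle 50% from 300 to 771 bp, and up to 1958 bp). For the 701, the nearer end was a median of 148 bp from the summit and the farther end 336 bp. On a scale where 0 is the nearer 5' end and 0.5 the midpoint, the median position was 0.304 (middle 50% from 0.196 to 0.414). Positions up to 0.1, beside an end, held 68 summits (9.70%), and those from 0.4 to 0.5, at the midpoint, held 194 (27.7%). Neither strand was preferred, with the plus-strand end nearer at 349 members, the minus-strand end at 349 and both equally far at 3.

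The side of the midpoint was mostly the same in both replicates. Of 696 members with summits in both, 638 (91.7%) had the optimal summit and both replicate summits nearer the same gene. At the other 58, where these summits were not all on the same side, the optimal summit lay a median of 7.25 bp from the midpoint, against 95.2 bp at the 638. At 84.1% the summit was farther from the midpoint than the replicate summits were from each other. The recorded summit was the exact centre of the peak at 361 members (47.3%), which limits its precision there.

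**Figure D3:**
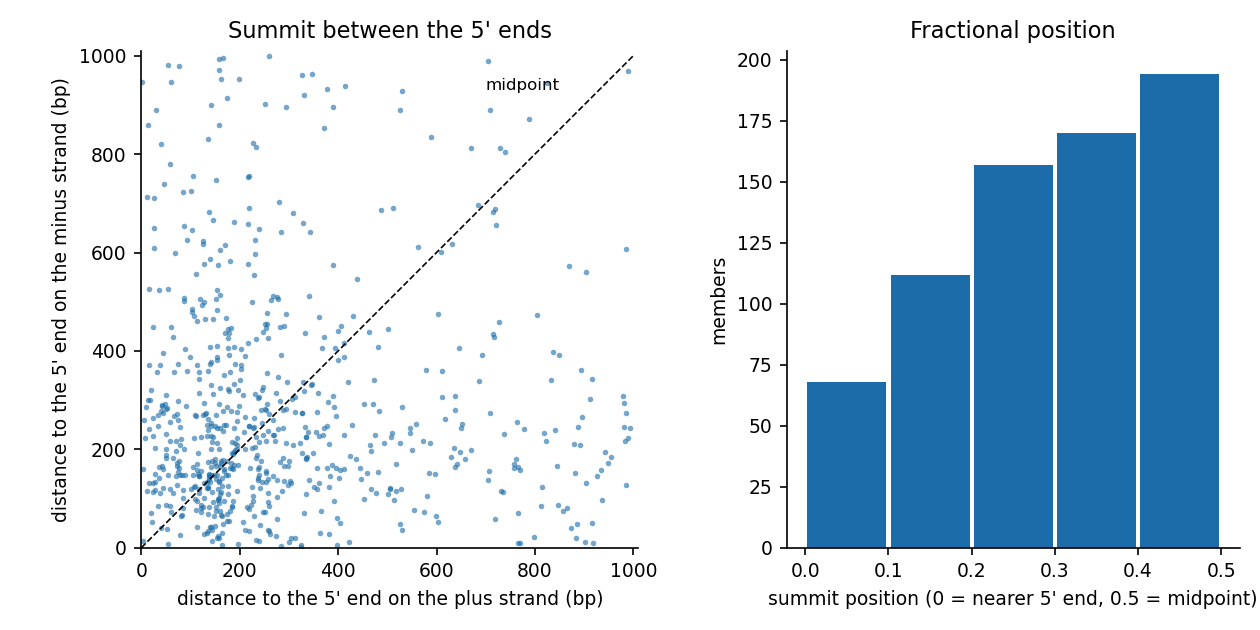
Left, distance from the summit to the nearest 5' end on the plus strand (horizontal) and on the minus strand (vertical), in bp, for the 701 members with the summit between them; points on the dashed line are at the midpoint. Right, number of these members by position between the nearer 5' end (0) and the midpoint (0.5), from 68 at the end to 194 at the midpoint.

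The position between the ends varied with their spacing without a steady trend. At 5' ends under 200 bp apart the nearer end was a median of 35.0 bp from the summit and the median position was 0.227 (44 members). At 200 to 400 bp the nearer end was a median of 96.0 bp from the summit and the median position was 0.350 (209 members). At 400 to 600 bp the values were 171 bp and 0.354 (168 members), at 600 to 800 bp 208 bp and 0.292 (115 members), and at 800 to 1000 bp 195 bp and 0.225 (79 members). Above 1000 bp they were 318 bp and 0.252 (86 members). At that spacing the rule leaves out summits over 1000 bp from either 5' end, so it sets part of these last values. Median signal in these bins of rising spacing was 125, 139, 122, 128, 105 and 107. Both 5' ends were within 200 bp of the summit at 180 members (23.6%).

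The window limit of the rule cut through a continuous set of distances. Just inside it, the farther 5' end was 1000 bp away at spr-1 / snap-1 (signal 207), 996 bp at nstp-10 / ehbp-1 (50.9) and 995 bp at one peak of mars-1 / F58B3.6 (124). Just outside were nasp-2 / C50B6.3 at 1001 bp (229), mdh-1 / F46E10.3 at 1001 bp (93.5) and vha-3 / Y38F2AL.12 at 1004 bp (53.3).

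Not every head-to-head pair had a peak. Of 2378 autosomal head-to-head pairs with 5' ends up to 2000 bp apart, 711 (29.9%, exact interval 28.1 to 31.8) had a member peak. The share was 28.1% at a spacing under 200 bp, 49.7% at 200 to 400 bp (223 of 449, interval 44.9 to 54.4), 43.3% at 400 to 600 bp, 34.9% at 600 to 800 bp and 27.0% at 800 to 1000 bp. It was 9.76% above 1000 bp, where the rule leaves only part of the stretch open. Any optimal summit between the 5' ends was found at 25.1% of those wide pairs, and at 45.2% of pairs 200 to 400 bp apart. The replicates gave 44.8% and 46.3% at 200 to 400 bp and 24.1% and 25.7% above 1000 bp. Pairs with a member were a median of 476 bp apart, against 801 bp for pairs without one. The window limit keeps down the number of members at pairs over 1000 bp apart, so the rule sets part of this difference.

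**Figure D4:**
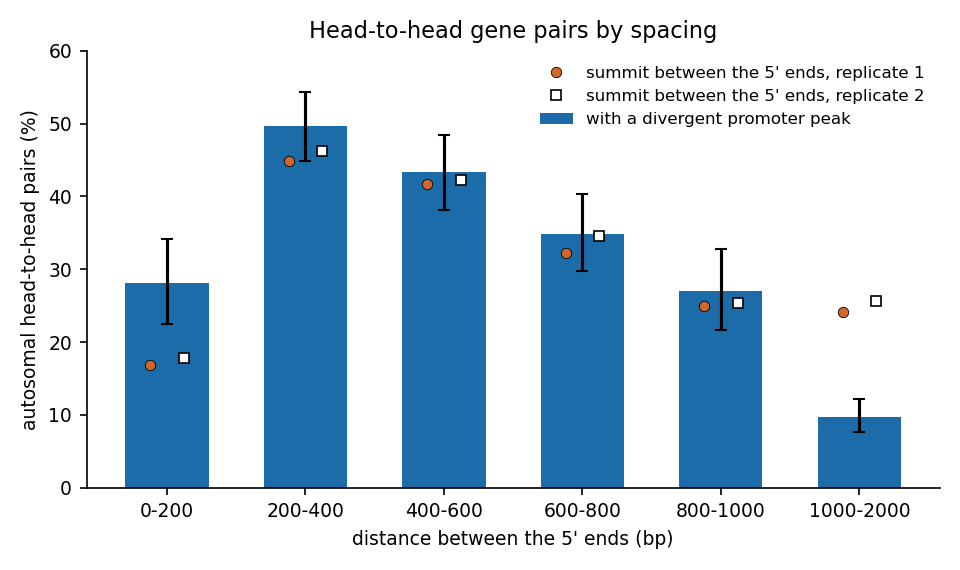
Share of the 2378 autosomal head-to-head gene pairs with a divergent promoter peak (bars, exact 95% intervals for counting error), by distance between the 5' ends in bp. Circles and squares give the share with a summit between the 5' ends among the 4904 highest peaks of replicate 1 and of replicate 2; all 3 measures are highest at 200 to 400 bp, where the bar is at 49.7%.

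Genes with a head-to-head neighbour had a promoter peak of any kind more often than genes without one, at 33.7% of 4756 against 11.8% of 12486. A gene with a neighbour is counted also when the peak is nearer the neighbour. The order was the same in 21 of the 22 gene lists described next. The exception was the 8 genes of the NuRD and MEC complexes, at 1 of 2 with a neighbour and 4 of 6 without. Some of the 21 rest on few genes too, such as synMuv heterochromatin, at 2 of 2 with a neighbour and 1 of 4 without.

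Genes of the ribosome and of translation were often in divergent pairs with a peak. Of 79 autosomal genes of cytosolic ribosomal proteins 43 had a divergent peak (54.4%, against 8.92% of all autosomal genes), and these were 43 of the 49 with a head-to-head neighbour (87.8%, against 30.1%). Their 40 peaks had a median signal of 255 and all lay between the 5' ends. The 5' end of the ribosomal protein gene was the nearer one for 15 of the 43 genes, and the median distance was 281 bp to it and 230 bp to its partner. Among the 30 without a neighbour, 24 had a one-strand promoter peak (80.0%), so peaks at these genes were not limited to divergent pairs. Of 70 genes of mitochondrial ribosomal proteins 22 had a divergent peak (31.4%), led by mrps-17, which faces txdc-9 (signal 327), and mrpl-49, which faces rpl-28 (316). Of 37 translation factors 16 had one (43.2%), led by eef-1A.1 and iff-2, and of 32 aminoacyl-tRNA synthetases 11 did (34.4%), led by ears-2 (190) and mars-1 (174). A gene is counted here when the summit is in its window, also when the partner is nearer. With each summit given only to its nearest 5' end, the share over all autosomal genes was 4.41%, and the counts were 15 for cytosolic ribosomal proteins (19.0%), 8 for mitochondrial ones (11.4%), 9 for translation factors (24.3%) and 7 for synthetases (21.9%).

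Genes of protein folding and turnover, RNA processing and transcription had like shares. Of 33 proteasome subunit genes 18 had a divergent peak (54.5%), led by rpn-3 (signal 459) and rpt-2 (301). Chaperone genes had one at 25 of 60 (41.7%), led by hsp-110 (459) and cct-1 of the TRiC chaperonin (413). The peak of rpn-3 and hsp-110 is the same one, at chrIII:8446787-8447307, 208 bp from rpn-3 and 236 bp from hsp-110. Splicing genes had one at 26 of 46 (56.5%), led by prp-8 (292) and prp-19 (262), of which prp-8 encodes the core protein of the spliceosome. Genes of RNA polymerase II, Mediator and Integrator had one at 18 of 56 (32.1%), led by mdt-19 (453) and mdt-6 (237), whose 5' ends lay 764 and 916 bp from the summit. That list was built from gene symbols and also counts taf genes such as taf-4, which belong to none of these complexes. Genes of nucleoporins and nuclear transport had one at 15 of 40 (37.5%), led by npp-14 (319) and imb-1 (306), the importin beta gene. Counted by the nearest 5' end alone, these lists had 11 proteasome (33.3%), 10 chaperone (16.7%), 13 splicing (28.3%), 11 polymerase, Mediator and Integrator (19.6%) and 7 nuclear transport genes (17.5%), against 4.41% of all.

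Respiratory chain, trafficking and cell cycle lists were also above the 8.92% of all genes. Respiratory chain genes had a divergent peak at 14 of 40 (35.0%), led by cox-6B (signal 471) and atp-1 of the ATP synthase (382), where the summit was 2 bp from the 5' end of atp-1. The respiratory chain list, built from gene symbols, is incomplete. It leaves out ndua-8 and nduv-3, for example, which had divergent peaks with signals of 373 and 299. Vesicle trafficking genes had one at 22 of 89 (24.7%), led by rab-18 (374) and vps-51 (269). Cell cycle and replication genes had one at 26 of 73 (35.6%), led by ska-3 and cdk-5. The cell cycle list was also built from gene symbols and holds genes with other roles, such as cdc-42 of cell polarity and cdk-5 itself, which is known for work in neurons. By the nearest 5' end alone the counts were 8 of 40 for the respiratory chain, 9 for trafficking (10.1%) and 16 for the cell cycle list (21.9%).

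The lists of chromatin regulators that belong with mep-1 to the synMuv genes are short. Of 8 DREAM complex genes 4 had a divergent peak (exact interval 15.7 to 84.3%, against 8.92% of all autosomal genes), lin-54 (signal 549), lin-53 (381), lin-35 (269) and efl-1 (252). LIN-53 is a histone-binding protein of the RbAp type, LIN-35 the worm retinoblastoma protein and EFL-1 an E2F factor. The 2 strongest summits were nearer the partner gene. That of lin-54 was 363 bp from lin-54 and 30 bp from rpl-12, and that of lin-53 was 248 bp from lin-53 and 219 bp from nra-2. The lin-35 summit was 194 bp from lin-35 and 224 bp from vps-51, and that of efl-1 was 184 bp from efl-1 and 955 bp from the F-box gene fbxa-90. lin-53 was also the only one of 8 NuRD and MEC genes with a divergent peak, and 4 more of these had a one-strand peak. That 1 of 8 is 12.5% (0.316 to 52.7), near the share of all genes. Of 6 synMuv heterochromatin genes only lin-61, which faces the spindle checkpoint gene bub-1, had one (signal 59.9), which is 16.7% (0.421 to 64.1) and not told apart from all genes at this number.

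Large gene families had a divergent peak at 0.470% to 4.92% of their autosomal genes, against 8.92% of all, and they differed in their shares among genes with a neighbour. Chemoreceptor genes had one at 6 of 1276 (0.470%), and at 6 of the 277 with a head-to-head neighbour (2.17%, against 30.1% of all genes with one). The strongest was at sri-5 (signal 360), 255 bp from the summit and facing the splicing gene rsr-1. For 4 of the 6 the partner's 5' end was the nearer one. C-type lectin genes had one at 4 of 237, F-box genes at 15 of 305, neuropeptide and insulin-like genes at 3 of 106, nuclear hormone receptor genes at 7 of 246 and cuticle collagen genes at 7 of 144. Of the genes with a head-to-head neighbour, the shares were 5.06% for C-type lectins, 15.8% for F-box genes, 14.0% for nuclear hormone receptors and 17.9% for collagens. For neuropeptide genes it was 3 of 12, near the 30.1% of all such genes. Nuclear hormone receptor genes had a promoter peak of any kind at 16.3%, near the 17.8% of all autosomal genes. The strongest of these were fbxb-85 with hex-3 (370), nhr-47 with the chaperone gene dnj-19 (265), nlp-4 with exos-3 (184) and clec-53 with uba-5 (118). The strongest collagen was col-38 (385), which faces rpl-5 and lay 440 bp from the summit. Among collagens the summit was nearest to the collagen gene in 1 of 7, and among F-box genes in 6 of 15.

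Most autosomal histone genes had a head-to-head neighbour, and most of these had no divergent peak. Of 68 autosomal histone genes 62 had a head-to-head neighbour (91.2%), and 13 of the 62 had a divergent peak (21.0%, against 30.1%). The strongest was between his-67 and his-68 (signal 213), followed by his-31 / his-32 (150), his-60 / his-59 (94.8) and his-61 / his-62 (88.2). Histone genes have near-identical copies, so reads may not have been placed uniquely and both the peaks and their absence are uncertain.

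**Figure D5:**
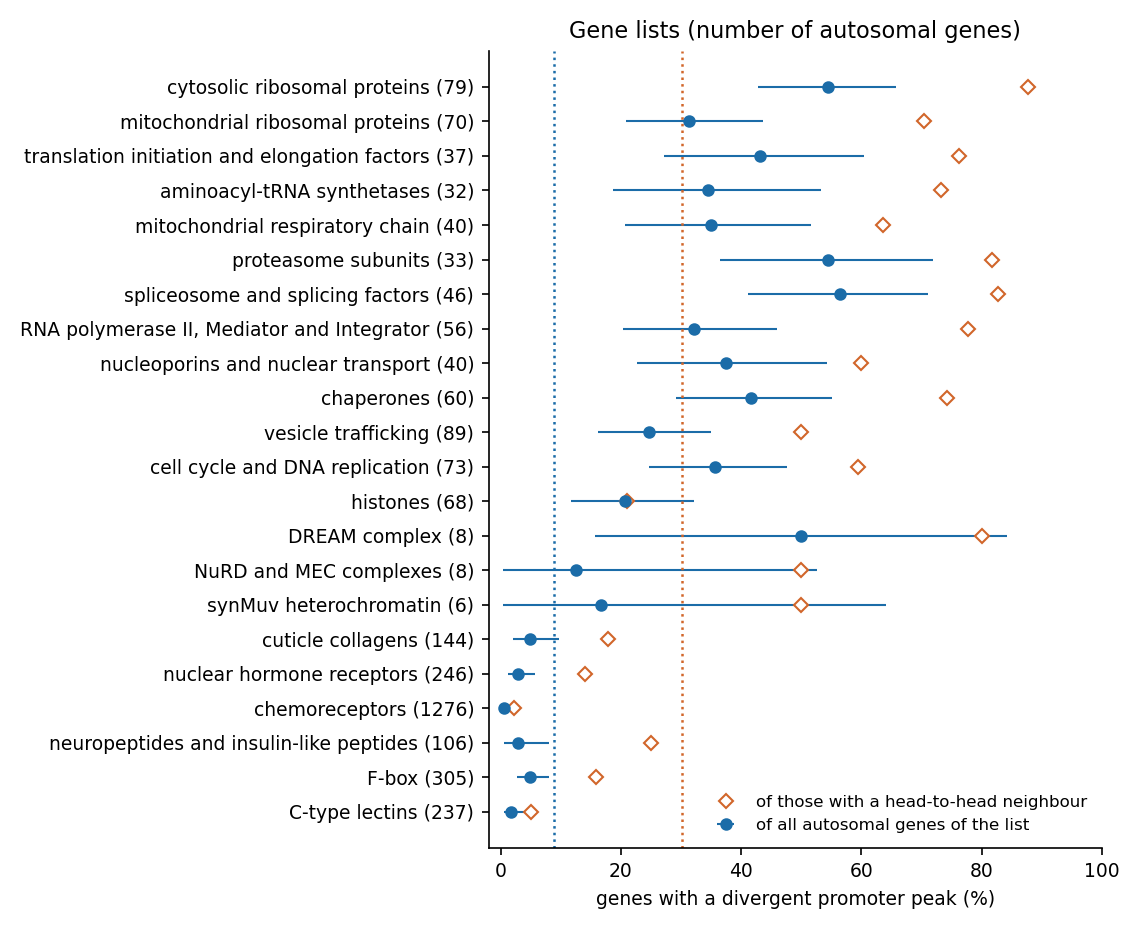
Share of autosomal genes with a divergent promoter peak in 22 lists, as filled circles over all genes of the list (exact 95% intervals for counting error) and as diamonds over those with a head-to-head neighbour. Dotted lines give the same shares over all autosomal genes, 8.92% and 30.1%; cytosolic ribosomal proteins reach 54.4% and 87.8%, and chemoreceptors 0.470% and 2.17%.

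A listed gene on both strands was found at 44 of the 764 member peaks, and at 18 of these both genes were of the same list. The pair hsp-16.2 / hsp-16.41 accounts for 2 of the peaks in each count. The same counts are not given for head-to-head pairs without a peak, so these have no background to be read against. The strongest of the same-list pairs were ribosomal: rps-14 / rpl-36 (signal 290), rps-10 / rpl-24.1 (245) and rpl-39 / rps-30 (210). Next came his-67 / his-68, the SR splicing factor pair rsp-2 / rsp-1 (171), his-31 / his-32 and orc-5 / cyb-1 (149), an origin recognition gene with a cyclin B gene. In mixed pairs, rpl-28 of the cytosolic ribosome faced mrpl-49 of the mitochondrial one (316), and pas-4 of the proteasome faced rpb-3 of RNA polymerase (212). A single listed gene was found at 231 members and none at 489. Of the genes in these pairs 20.9% were in a list, against 17.7% of autosomal genes.

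The short words searched under the summits differed in how they set divergent peaks beside one-strand peaks. The 11 words were looked for within 50 bp of each summit, on both strands. The GC-rich words GAGCGC and ACGCGC were at 19.4% and 18.1% of divergent summits (exact intervals 16.6 to 22.4 and 15.4 to 21.0), against 11.8% and 13.2% of one-strand summits (10.3 to 13.4 and 11.6 to 14.9). At 1557 midpoints of head-to-head pairs with no optimal summit they were at 2.18% and 2.76%, and at all 2378 midpoints at 3.66% and 4.04%. The 2 words share the letters GCGC, so a stretch can hold both.

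The words GACGCA and CGTCTC went the other way or did not separate the classes. GACGCA was at 16.9% of divergent summits (14.3 to 19.7), 18.5% of one-strand summits (16.6 to 20.4), 2.44% of midpoints without a peak and 3.49% of all midpoints. CGTCTC was at 13.9% of divergent summits (11.5 to 16.5), against 20.8% of one-strand summits (18.8 to 22.8), 2.70% of midpoints without a peak and 3.57% of all midpoints. GACGCA was at 24.6% of the 25% of members with the highest signal and at 9.95% of those with the lowest. Members with GACGCA had a median signal of 159, against 116 for those without it. These 4 words had ranked high over all peaks in an earlier look at the same data, so that they are more frequent at summits than at midpoints is not independent of that choice.

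Letters of known promoter elements were mostly rare under divergent summits. TGATAA, which GATA factors bind, was at 3.14% of divergent summits, 5.78% of one-strand summits, 10.8% of midpoints without a peak and 9.88% of all midpoints. The TATA box letters TATAAA were at 4.84%, 5.42%, 13.8% and 13.7% in the same order, and TTTGAA, the letters of the cell cycle homology region, at 22.0%, 18.9%, 31.6% and 29.9%. The E-box CACGTG was at 2.88%, 5.60%, 1.67% and 1.81%, the E2F letters TTCCCGC at 2.75%, 2.65%, 1.22% and 1.35%, and CCGCCC, the GC box, at 5.10%, 5.48%, 2.70% and 2.99%. GGTTCGA, from the start of the B box of transfer RNA genes, was at 1 divergent summit (0.131%), against 1.26% of one-strand summits, 0.514% of midpoints without a peak and 0.463% of all midpoints. Composition moved with these shares: median GC content was 45.5% at divergent summits, 44.6% at one-strand summits, 32.7% at midpoints without a peak and 33.7% at all midpoints, and its part in them was not tested.

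Short non-coding genes were seldom beside divergent summits. A transfer RNA, small nucleolar RNA, small nuclear RNA, micro RNA or ribosomal RNA gene lay within 200 bp of 11 divergent summits (1.44%), against 3.97% of one-strand summits and 9.19% of summits outside windows.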

How the data were processed

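Chromatin immunoprecipitation with sequencing was measured in 2 biological replicates of 1 group, from fragments of 150 to 350 bp, per the labels. The deposited lists give a signal per peak, computed by the authors with a control, per the deposited file lists. The sources used here do not name an aligner, peak caller or reproducibility threshold, and depth is unknown because the lists hold no counts. The ce11 lists of replicate 1, replicate 2 and both pooled hold 30000, 29149 and 30000 peaks. A check found the 4904 optimal peaks to be the pooled peaks of highest signal.

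Summits were classed against 29314 annotated 5' ends of 19973 protein-coding genes (Ensembl release 115) with Python 3.11.15, pandas 2.3.3, numpy 2.4.6 and scipy 1.17.1, and plotted with matplotlib 3.10.9. The classing was tested on simulated gene models. No test was run, since there is 1 group and peaks are not replicates. Intervals are exact Clopper-Pearson at 95% and cover counting error only. Replicate numbers only name the samples.

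Members, gene lists (by gene symbol) and words were chosen with earlier results of these data known. Named pairs are the 15 members of highest signal, the 2 strongest genes per list (1 pair is not reported here), up to 12 pairs with listed genes on both strands, the 3 lowest, those nearest the window limit and the 3 with the most different replicate ranks. Other pairs named, at double peaks and among weaker collagen, histone and receptor pairs, were chosen after their values were seen. Alternatives were other windows, outermost 5' ends, a stricter list, each replicate alone and reciprocal overlap.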

Additional observations from a re-analysis of the deposited data

Results flagged for a closer look

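Apart from the summit densities, the pooled list below the optimal peaks was not used in the comparisons above. It held summits at head-to-head pairs too. At 294 of the 2378 autosomal head-to-head pairs (12.4%) the only summit between the 5' ends was such a lower-ranked pooled one, and no control list was analysed to give a background for it. Their share was 3.72% of pairs under 200 bp apart and 19.8% of those above 1000 bp, where the stretch is longer. At 1263 pairs (53.1%) the pooled list had no summit between the 5' ends.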

How the results depend on the processing

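Divergent peaks stayed above the middle rank of autosomal promoter peaks under every alternative run. The member count moved by less than 1.5 times, to 531 with a window of 500 bp upstream, 727 with none downstream, 721 with outermost 5' ends only, 566 in the higher-signal 50% of the list and 753 without members beside short non-coding genes, the last chosen after seeing the data. With the 500 bp window the share of promoter peaks that was divergent was 25.9%, the median percentile 64.2, the median position 0.355 and the share of head-to-head pairs 21.2%. With no window downstream they were 31.0%, 62.6, 0.302 and 28.5%, and 100% of summits lay between the 5' ends by construction. With outermost 5' ends they were 33.4%, 60.6 and 0.308. In the higher-signal 50% of the list they were 39.0%, 54.7, 0.312 and 22.7%, with 93.5% between the 5' ends and 98.9% supported by both replicates. Reciprocal overlap of 50% lowered that support to 64.5%. Each replicate alone gave 763 to 785 members, shares of 31.5% to 31.9%, percentiles of 61.9 to 62.3, 90.7% to 92.0% between the 5' ends, positions of 0.308 to 0.310 and 30.0% to 31.0% of pairs. Added after seeing the data, the percentile was 62.0 without ribosomal peaks, 61.0 within 200 bp of a 5' end and 63.8 beyond it. With a summit given only to its nearest 5' end, the count fell by over 1.5 times in 20 of the 22 gene lists, to 15 of 43 for ribosomal protein genes, while the share over all genes was 4.41% in place of 8.92%. The order against one-strand peaks changed for 2 of the 11 words, TATAAA and CCGCCC, within 100 bp. The causes were not tested.

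No paired analysis was possible because there is 1 group. Depth is unknown, 47.3% of summits are the centre of the peak, annotated 5' ends can differ from true starts, and the lists do not tell which gene of a pair a peak belongs to.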

Other observations

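Words seen by eye in the 6 printed sequences were counted afterwards over all members, so their choice followed the sequences. ATACACT or its reverse complement AGTGTAT was within 50 bp of 14 divergent summits (1.83%), against 1.87% of one-strand summits and 1.61% of midpoints of head-to-head pairs without a peak. At members with a ribosomal protein gene it was at 3 of 40, and at the other members at 11 of 724 (1.52%). Those 3 are the printed rpl-20 / Y17G9B.5, ifet-1 / rps-1 and rpl-15 / K11H12.8, from which the word was picked. The choice of the word therefore fixes this difference, and nothing is concluded from it. CGGAGTG or CACTCCG was at 40 divergent summits (5.24%), against 1.99% of one-strand summits and 0.514% of midpoints without a peak. It was at 5 of the 40 ribosomal members and at 35 of the other 724 (4.83%), and members with and without it had median signals of 117 and 119. Those 5 include the printed ifet-1 / rps-1 and ska-3 / rps-12, from which the word was picked.

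Genes outside every list gave nearly the same shares as all genes, since 33.6% of 3803 with a head-to-head neighbour had a promoter peak, against 12.3% of 10381 without one.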
